A study of Mus musculus with 36 samples.

Results

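The collagen genes of the mouse were followed through a 6-day time course of embryonic stem cells given a solvent, BPK25 or auxin. They were taken by rule as every protein-coding gene in the count table whose symbol had the form Col, a number, the letter a and a number. The rule found 44 of the 55335 genes in the table. Of these, 11 encode fibrillar collagens, 6 encode the chains of type IV collagen and 27 encode other collagens. Counts were high enough in 39 of the 44 for testing, made up of all 11 fibrillar, 4 type IV and 24 other genes. Col4a3, Col4a4, Col10a1, Col19a1 and Col28a1 were not tested. A mean of at least 5 CPM (counts relative to the scaled total of their library) in at least 1 group was reached by 31 members.

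The 36 libraries fell into 12 groups of 3, with DMSO, BPK25 or auxin (indole-3-acetic acid, IAA) at days 0, 2, 4 and 6, all made from polyA RNA of cells labelled mESC. DMSO is the solvent control, BPK25 is a compound that the labels give as a code name alone, and auxin is used in degron systems to remove a tagged protein. The series title names the NuRD chromatin remodelling complex and CTCF sites as its subject. The labels name no genotype, tagged protein, dose, start of treatment or origin of the day count, and no targeted gene could be checked. Per the labels, all groups shared medium with serum replacement and the self-renewal cytokine LIF, and the cells were typically grown on gelatin with irradiated mouse embryonic fibroblasts as feeders.

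Collagens are extracellular proteins in which chains with a repeated glycine wind into a triple helix. Fibrillar chains such as those of types I, II, III, V and XI pack into the long fibrils of skin, bone, tendon and cartilage, whereas type IV chains join into the sheet-like network of basement membranes, on which the early epithelia of the embryo rest. The remaining genes encode collagens on fibril surfaces (FACITs), beaded filaments of type VI, the anchoring fibril collagen VII, the multiplexins XV and XVIII, transmembrane collagens and short-chain network collagens.

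All 3 pairs of type IV genes lie head to head. Col4a1 (ENSMUSG00000031502.11), the type IV chain made in almost all basement membranes, spans chr8:11198423-11312826 on the minus strand of GRCm38. Col4a2 (ENSMUSG00000031503.13), its partner chain, spans chr8:11312805-11449287 on the plus strand, so that the first exons of the pair overlap by 22 bases. Col4a4 and Col4a3 are 71 bases apart on chromosome 1, and Col4a6 and Col4a5 are 1308 bases apart on chromosome X. Among the fibrillar genes, Col3a1 and Col5a2 lie tail to tail on chromosome 1, 24.6 kb apart. Upstream sequences from RefSeq (GRCm38.p6, the 250 bases before a gene's start) were matched by symbol to 35 members, which had 38 entries. No entry was matched for Col12a1, Col14a1, Col1a1, Col22a1, Col26a1, Col2a1, Col4a3, Col5a2 and Col9a3. The letters GGGCGG, or CCGCCC on the other strand, were in 6 of 8 fibrillar, 3 of 5 type IV and 13 of 25 other sequences, against 32.7% of 32817 mouse sequences of the same length. The letters CCAAT or ATTGG were in 3 of 8, 3 of 5 and 7 of 25, against 33.8%, and TATAAA or TTTATA in 2 of 8, 0 of 5 and 3 of 25, against 12.4%.

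The stretch shared by Col4a1 and Col4a2 is printed because this pair made up most collagen counts. The upstream sequences of the fibrillar genes Col3a1 and Col11a2 are printed because these genes moved in opposite directions with BPK25 at day 4. Of the 8 fibrillar genes with a matched sequence, they are also the 2 with TATAAA in the window. Each is written 5′ to 3′ on the plus strand, with any of these motifs in capitals, from chr8:11312805-11312826, chr1:45311288-45311537 and chr17:34038888-34039137 in that order. A match of letters is a description and not a shown binding site.
Col4a1 and Col4a2 shared start: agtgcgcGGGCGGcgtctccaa
Col3a1 upstream: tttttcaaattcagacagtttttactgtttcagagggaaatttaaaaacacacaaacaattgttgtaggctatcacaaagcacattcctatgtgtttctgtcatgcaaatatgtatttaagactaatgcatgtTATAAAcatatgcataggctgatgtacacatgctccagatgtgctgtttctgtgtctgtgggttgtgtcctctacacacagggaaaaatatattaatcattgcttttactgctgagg
Col11a2 upstream: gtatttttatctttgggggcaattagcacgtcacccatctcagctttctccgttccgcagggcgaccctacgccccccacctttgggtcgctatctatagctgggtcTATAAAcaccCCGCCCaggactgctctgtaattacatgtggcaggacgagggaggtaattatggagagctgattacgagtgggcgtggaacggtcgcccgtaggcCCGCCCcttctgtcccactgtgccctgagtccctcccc
The shared stretch carried 1 GGGCGG. Col3a1 had its TATAAA 117 bases before the RefSeq start and neither of the other motifs. Col11a2 had TATAAA 143 bases before its RefSeq start and 2 copies of CCGCCC. That start lies upstream of the start of the gene in GENCODE, at chr17:34039437.

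Library totals ran from 6621288 to 16497799 counts. Nothing in the labels says that the 3 libraries of a group came from separate cultures, and p-values here reflect library-to-library spread, which may be technical. All comparisons with DMSO on a day share the same 3 DMSO libraries, as do the comparisons with DMSO day 0. The BPK25 day 4 libraries stood apart from the rest of that treatment. Their root-mean-square log2 distance to DMSO of the same day was 0.537 over all tested genes, against 0.216, 0.230 and 0.196 at days 0, 2 and 6, and the nearest group to them was IAA day 2, at 0.443. In the collagens alone the distances were 0.949 at day 4 and 0.308, 0.314 and 0.319 at the other days. IAA day 2 was nearer to DMSO day 4 than to DMSO day 2. Its distances were 0.428 against 0.634 over all tested genes and 0.603 against 0.903 in the collagens. In the collagens IAA day 4 was nearest to DMSO day 6, at 0.690 against 0.986 to DMSO day 4. Over all tested genes its nearest group was IAA day 6, at 0.404. How far the IAA results below reflect a later stage of the DMSO series was not tested. In bulk RNA, fewer cells of a type and less RNA per cell cannot be told apart.

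Markers of other cells moved over the groups too, and their part in the collagen results was not tested. The 12 fibroblast markers that are not collagens summed to 171 to 173 CPM in DMSO day 0 and to 312 to 315 in DMSO day 6. Of 10 tested genes, 6 were called higher and 1 lower, against 33.2% and 29.5% of all genes tested. Their sum was lower in BPK25 day 4, at 163 to 172 CPM with Dcn, Lum and S100a4 at 0, than in DMSO day 4, at 223 to 239 with no marker at 0. It was higher in IAA day 2, at 225 to 239 CPM although Fap, Dcn, Lum and S100a4 were at 0, than in DMSO day 2, at 154 to 162 with no marker at 0. It was 325 to 338 CPM in IAA day 4 and 345 to 359 in IAA day 6, with S100a4 at 0 in both. Pdgfra and Fbn1 made up most of this fibroblast sum, at 126.7 and 25.93 CPM in DMSO day 0. They stood at 207.7 and 88.61 CPM in DMSO day 6 and at 162.5 and 54.25 in IAA day 2. In DMSO day 6 no other marker of this list exceeded the 5.29 CPM of Pdgfrb. The sum therefore follows Pdgfra and Fbn1 and is not a measure of fibroblast content. In IAA day 2, 2 of 10 tested fibroblast markers were called higher than in DMSO and 5 lower. The 11 markers of extra-embryonic endoderm, a lineage rich in basement membrane, summed to 2161 to 2189.9 CPM in DMSO day 0, 2982 to 3038 in DMSO day 4 and 5935 to 5993 in DMSO day 6, where all 11 were called higher than at day 0. They summed to 1855 to 1894 CPM in BPK25 day 4, 4588 to 4638 in IAA day 4 and 4568 to 4602 in IAA day 6. Lama1, Lamb1 and Dab2 made up most of this endoderm sum, at 916, 737 and 350 CPM in DMSO day 0. They stood at 2994, 2149 and 501 CPM in DMSO day 6. The sum therefore follows few genes and is not a measure of the lineage. The 8 endothelial and smooth muscle markers summed to 299 to 304 CPM in DMSO day 0 and 127 to 133 in DMSO day 4. Their sum was 349.6 to 373 CPM in BPK25 day 4 and 221 to 223 in IAA day 4. It was 121 to 136 CPM in DMSO day 6 and 278 to 287 in IAA day 6. Pecam1 alone stood at 271 CPM in DMSO day 0, 93.0 in DMSO day 4 and 217 in BPK25 day 4, most of the sum in each. In DMSO day 6 it stood at 43.2 CPM, although 6 of the 8 markers were called higher than at day 0 and 1 lower. The pluripotent cell marker Pou5f1 went from 833 to 208 CPM over the same days, and stood at 376 in BPK25 day 4 and 361 in DMSO day 4. The sum mostly follows Pecam1 and is not a measure of endothelial cells. In BPK25 day 4, 5 of 8 markers were called higher than in DMSO and 2 lower. Tagln stood at 99.7 CPM against 4.90, and Cdh5 at 2.39 against 7.92. Sums of the 6 chondrocyte markers lay between 14.0 and 30.4 CPM, while single markers moved in opposite directions. In DMSO the chondrocyte regulator Sox9 went from 1.57 CPM at day 0 to 9.17 at day 6, while Matn3, a cartilage matrix protein, went from 4.47 to 2.26. The 8 markers of pluripotent cells, the labelled cell type, were present in all groups, at 2788 to 2883 CPM in DMSO day 0 and 687 to 697 in DMSO day 6, where all 8 were called lower than at day 0. With IAA they summed to 3848 to 3884 CPM at day 0, with 7 of 8 called higher than in DMSO, and to 1442 to 1468 at day 2, against 2630.4 to 2676 in DMSO, with all 8 lower. At IAA days 4 and 6, 6 of 8 were lower and 1 was higher. The shares of all genes tested that were called in each comparison are given with the collagen counts below.

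Col4a1 and Col4a2 were the most abundant collagen transcripts in all 12 groups. Together they held between 79.8% (BPK25 day 4) and 94.4% (BPK25 day 6) of collagen counts on average, with a Col4a1 to Col4a2 ratio of counts from 1.44 (BPK25 day 6) to 1.70 (IAA day 0). Per kilobase of annotated exonic length, Col4a1 stood at 208 CPM and Col4a2 at 149 in DMSO day 0, against 23.6 for Col18a1, the chain that carries endostatin. The type I and III chains were far lower on this scale. Col1a1 was at 0.665 CPM per kilobase, Col1a2 at 0.246 and Col3a1 at 0.183 in DMSO day 0, and at 7.08, 4.44 and 10.5 in IAA day 6, their highest group. Col4a3 and Col4a4, chains of kidney glomerular basement membrane, were near 0 throughout, at 0 to 0.526 CPM and 0 to 1.18 CPM over the 36 libraries.

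The fibrillar and type IV sums both rose in DMSO but parted with BPK25 at day 4. The sum of the other collagens differed from both in DMSO. Summed over the 11 fibrillar genes, the level in DMSO was 41.7 ± 3.02 CPM (SD, n = 3, as for all class sums) at day 0, 76.4 ± 2.48 at day 4 and 143 ± 8.80 at day 6. The type IV sum in DMSO went from 2542 ± 27.3 CPM at day 0 to 3504 ± 25.6 at day 4 and 7361 ± 404 at day 6. The sum of the other collagens was 316 ± 7.36 CPM at day 0 and 278 ± 4.37 at day 6, with Col18a1 the largest part. Fibrillar and type IV sums were therefore higher at day 6 than at day 0 in every DMSO library, and the sum of the others was lower. The log2 change of the latter sum was -0.19, and -0.0935 with unscaled library totals. In BPK25 day 4 the type IV sum was 2127 ± 79.5 CPM, below every DMSO day 4 library, while the fibrillar sum was 96.9 ± 2.74 and that of the others 424 ± 9.97, both above every DMSO day 4 library. With IAA the type IV sum was 8018 ± 221 CPM at day 4 and 10486 ± 235 at day 6, and the fibrillar sum reached 333 ± 6.69 at day 6. The IAA sum of the other collagens peaked on day 2, at 506 ± 11.7 CPM, of which all but 124 ± 6.08 was Col18a1. These sums are descriptions without a test.

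**Figure D1:**
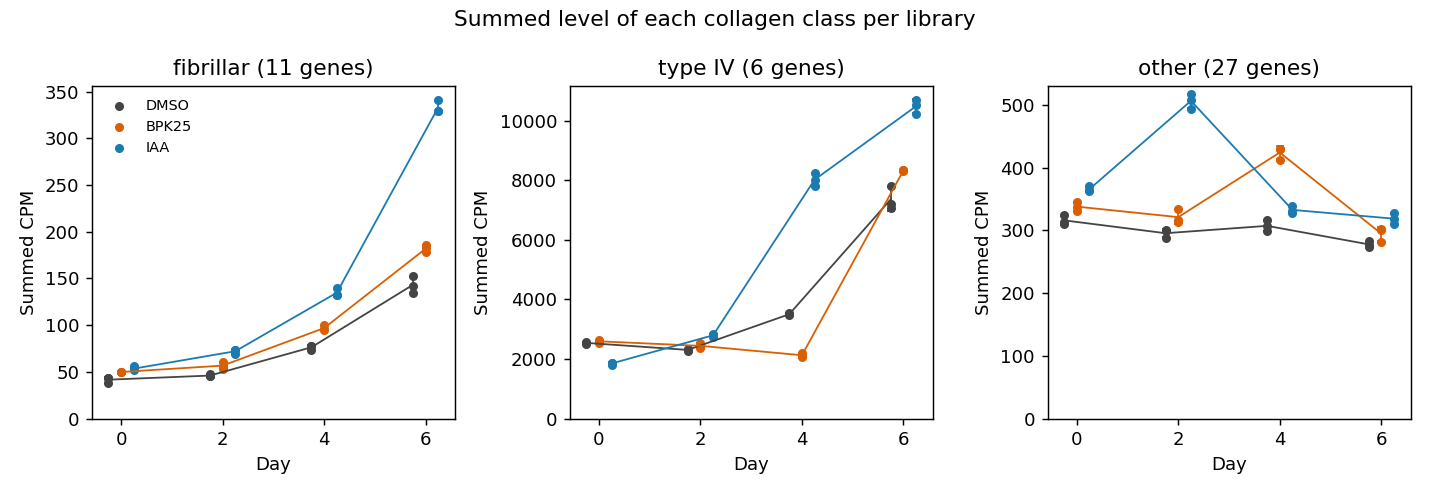
Summed CPM of the fibrillar, type IV and other collagen genes (y axis, linear, starting at 0) against day, with 1 point per library, lines through the means of 3 libraries and bars of 1 SD. The type IV sum of BPK25 (orange) is 2127 ± 79.5 CPM at day 4, below DMSO (grey), and the fibrillar sum of IAA (blue) is highest at day 6.

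The DMSO series shows how collagens changed with time in the solvent control. Between day 0 and day 6, 32 of 39 tested members were called, 25 higher and 7 lower, by edgeR's quasi-likelihood test with Benjamini-Hochberg adjustment over all 17394 genes tested and an adjusted p under 0.05. 62.7% of all genes tested were called, 33.2% higher and 29.5% lower. A change of at least 2-fold was called in 27 members, against 18.6% of all genes. By class, 10 of 11 fibrillar genes were higher and 1 lower (median log2 fold change 1.85), all 4 tested type IV genes were higher (median 1.70), and 11 of 24 others were higher and 6 lower (median 0.55). The median over all tested genes was 0.03. At day 4, 20 members were higher and 7 lower than at day 0; 50.3% of all genes tested were called, 26.0% higher and 24.4% lower. At day 2, 1 was higher and 3 were lower, and 5.44% of all genes tested were called, 1.59% higher and 3.85% lower. Of those 4, Col4a1, Col4a2 and Col18a1 lay between -0.15 and -0.13 on the log2 scale and only the call of Col2a1 (the cartilage fibril chain, 0.75 ± 0.17) held when any 1 library was left out, which gave 1 to 2 calls.

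Type IV chains rose together in DMSO. Col4a1 read 1584, 1523 and 1558 CPM in the 3 libraries at day 0, 1419.6, 1376 and 1404 at day 2, 2094, 2104 and 2114 at day 4 and 4142, 4691 and 4321 at day 6. Col4a2 read 977, 985 and 989 CPM at day 0, 898, 938 and 869.5 at day 2, 1394, 1367 and 1408 at day 4 and 2901, 3115 and 2873 at day 6. For both genes all day 6 libraries lay above all day 4 libraries, which lay above all those of days 0 and 2. From day 0 to day 6 Col4a1 rose by 1.50 ± 0.04 (log2 fold change ± SE, as below; adjusted p = 3.76e-33) and Col4a2 by 1.59 ± 0.04 (adjusted p = 2.74e-36). Col4a5, a chain of kidney, smooth muscle and other basement membranes, read 1.91, 2.89 and 2.79 CPM at day 0, 6.54, 6.58 and 6.46 at day 4 and 9.51, 10.4 and 9.29 at day 6, a rise of 1.94 ± 0.16. Its X-linked neighbour Col4a6 read 0.682, 0.525 and 1.09 CPM at day 0, 2.41, 2.86 and 3.38 at day 4 and 2.55, 2.28 and 3.13 at day 6. The neighbours thus both rose by day 4, Col4a6 by 1.90 ± 0.36 and Col4a5 by 1.37 ± 0.18, and the day 4 and day 6 libraries of Col4a6 overlapped.

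**Figure D2:**
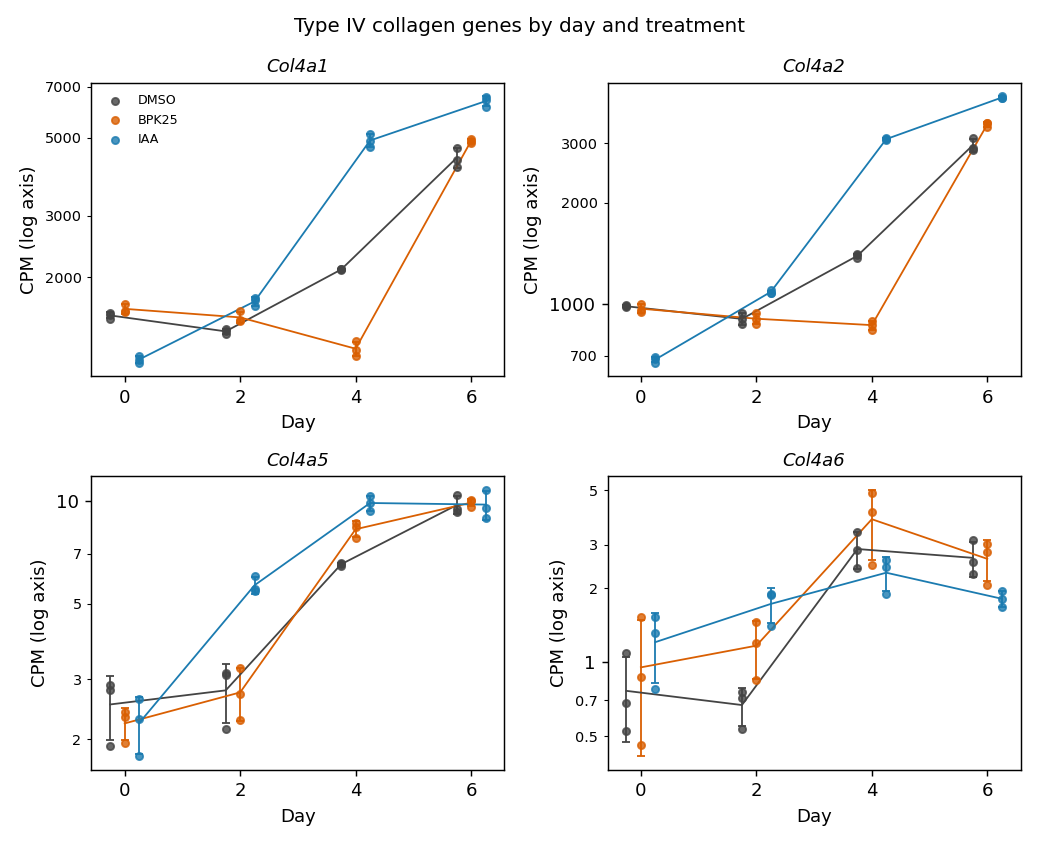
CPM (log axis) of Col4a1, Col4a2, Col4a5 and Col4a6 against day in DMSO (grey), BPK25 (orange) and IAA (blue), with 1 point per library, lines through the means of 3 libraries and bars of 1 SD. Col4a1 and Col4a2 of BPK25 are below DMSO at day 4 (log2 fold changes of -0.75 and -0.68), while those of IAA are above it.

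Fibrillar genes other than Col5a3 also rose in DMSO by day 6. Col1a1, the major chain of type I collagen, read 4.36, 4.07 and 4.66 CPM at day 0, 5.29, 4.19 and 6.61 at day 4 and 20.6, 20.7 and 21.5 at day 6. Its partner chain Col1a2 read 1.91, 3.54 and 3.72 CPM at day 0, 9.14, 11.6 and 9.55 at day 4 and 21.2, 19.7 and 19.6 at day 6. At day 4 Col1a2 was up by 1.74 ± 0.18 (adjusted p = 1.86e-11) with no overlap, whereas Col1a1 stood at 0.26 ± 0.18 (adjusted p = 0.261) with its day 0 and day 4 libraries overlapping, and the gap between the chains was not tested. By day 6 they had risen by 2.26 ± 0.13 and 2.73 ± 0.15. Col3a1, the single chain of type III collagen of skin and vessels, read 1.91, 1.31 and 2.17 CPM at day 0, 2.69, 3.05 and 3.38 at day 4 and 19.4, 22.98 and 16.7 at day 6, a rise by day 6 of 3.46 ± 0.19 (adjusted p = 2.45e-21). Its smaller day 4 change of 0.75 ± 0.30 was called, but the call was lost without replicate 1 or 2 of DMSO day 0 or replicate 2 or 3 of DMSO day 4 (edgeR adjusted p 0.0633 to 0.193).

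The type V and XI chains, which start and size fibrils, were split. Col5a1 rose by 1.22 ± 0.11 by day 6, Col5a2 by 2.24 ± 0.19 and Col11a1 by 1.85 ± 0.15, whereas Col5a3 fell, from 2.05, 2.89 and 2.48 CPM at day 0 to 0.812, 0.594 and 1.10 at day 6 (-1.55 ± 0.29, adjusted p = 8.12e-06). Col24a1, a fibrillar chain of developing bone, went from 0.273, 0.394 and 0.466 CPM to 3.54, 2.97 and 3.96 (3.18 ± 0.38). Col27a1, a fibrillar chain known from cartilage, read 5.87, 5.38 and 5.43 CPM at day 0 and 12.5, 14.4 and 12.5 at day 6 (1.23 ± 0.13). No library of day 0 overlapped one of day 6 in any of the 11 fibrillar genes, against 65.6% of all genes tested without overlap in this comparison.

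Among the other collagens the FACIT gene Col12a1, a collagen of dense connective tissue, rose most in DMSO, from 1.09, 1.18 and 0.621 CPM at day 0 to 12.6, 10.7 and 12.8 at day 6 (3.61 ± 0.23, adjusted p = 9.2e-19). Col9a2, a chain of the cartilage FACIT collagen IX, fell, from 51.01, 41.5 and 45.8 CPM to 11.4, 14.2 and 14.3 (-1.82 ± 0.10, adjusted p = 5.55e-21). The transmembrane collagen Col13a1, a component of the nerve and muscle junction, fell from 50.7, 46.2 and 48.6 CPM to 17.3, 19.3 and 18.1 (-1.42 ± 0.08, adjusted p = 9.75e-22). Groups did not overlap for any of these genes. Col17a1, the transmembrane collagen of hemidesmosomes, fell by 1.65 ± 0.25 and the type VI chains Col6a4 and Col6a5 by 2.60 ± 0.32 and 1.65 ± 0.21, whereas Col6a1 and Col6a2 of the same filament rose by 0.73 ± 0.20 and 0.65 ± 0.15. Col18a1 was not called between the ends, at 163, 168 and 166 CPM on day 0 and 165, 157 and 155 on day 6 (-0.06 ± 0.04, adjusted p = 0.234, overlapping).

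BPK25 was compared with DMSO on each day. At day 0, 2 of 39 collagens were called higher and none lower, and 7.90% of all genes tested were called, 3.32% higher and 4.58% lower. Both were fibrillar, Col27a1 (0.48 ± 0.14) and Col2a1 (0.61 ± 0.16), and leaving out 1 library gave 0 to 2 calls, with none left without replicate 3 of BPK25 day 0 or replicate 2 of DMSO day 0 and none by DESeq2, which gave 12 members an adjusted p. At day 2, 4 were called higher and none lower, and 13.5% of all genes tested were called, 6.40% higher and 7.12% lower. These were Col9a2 (0.45 ± 0.08), Col3a1 (0.95 ± 0.26), Col5a2 (0.71 ± 0.22) and Col4a1 (0.13 ± 0.04), of which only Col9a2 was called whichever single library was left out. The count was 2 without replicate 3 of BPK25 day 2 or replicate 2 or 3 of DMSO day 2.

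At day 6, 7 collagens were called higher with BPK25 and none lower, 4 of 11 fibrillar, 2 of 4 type IV and 1 of 24 other genes, and 7.09% of all genes tested were called, 4.01% higher and 3.08% lower. Col1a1 read 34.5, 35.7 and 33.3 CPM in BPK25 and 20.6, 20.7 and 21.5 in DMSO (0.72 ± 0.08, adjusted p = 3.31e-08). Col3a1 read 30.9, 32.3 and 28.02 against 19.4, 22.98 and 16.7 CPM (0.62 ± 0.09, adjusted p = 1.22e-05) and Col5a2, a chain of type V fibrils, 15.7, 16.1 and 15.6 against 11.2, 11.6 and 9.02 (0.57 ± 0.11, adjusted p = 0.000564). In these 3 genes every BPK25 library lay above every DMSO library. Col4a2 read 3438, 3454 and 3358 against 2901, 3115 and 2873 CPM (0.21 ± 0.04, adjusted p = 0.000146), also without overlap. Calls for Col4a1 (0.16 ± 0.04), Col1a2 (0.31 ± 0.09) and Col8a1 (0.85 ± 0.27) each depended on single libraries, and without DMSO day 6 replicate 3 the count fell to 4.

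Most BPK25 changes were at day 4. There, 26 of 39 collagens were called, 20 higher and 6 lower, and 53.0% of all genes tested were called, 26.2% higher and 26.8% lower. A change of at least 2-fold was called in 11 of 39, against 10.2% of all tested genes. Fibrillar genes split into 6 higher and 2 lower (median 0.37), type IV genes into 1 higher and 2 lower, and the others into 13 higher and 2 lower (median 0.70). The most abundant pair was lower. Col4a1 read 1194, 1313 and 1241 CPM with BPK25 and 2094, 2104 and 2114 with DMSO (-0.75 ± 0.04, adjusted p = 5.34e-21), and Col4a2 read 867, 891 and 836 against 1394, 1367 and 1408 (-0.68 ± 0.04, adjusted p = 2.44e-21). Neither chain's groups overlapped, and every BPK25 day 4 library was also below every DMSO day 0 library. Col4a5 went the other way, 8.62, 8.42 and 7.77 against 6.54, 6.58 and 6.46 CPM (0.34 ± 0.13), but the call was lost without replicate 1 or 2 of BPK25 day 4 or replicate 1, 2 or 3 of DMSO day 4 (edgeR adjusted p 0.0577 to 0.116). Col4a6 read 2.49, 4.87 and 4.07 against 2.41, 2.86 and 3.38 CPM, overlapping (0.38 ± 0.23, adjusted p = 0.172). Beside the fall of the pair, 8 of 11 extra-embryonic endoderm markers were also called lower and 2 higher, and their part in the fall was not tested.

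Fibrillar genes went in both directions at day 4 with BPK25. Col3a1 read 0.829, 0.395 and 0.555 CPM against 2.69, 3.05 and 3.38 in DMSO, a fall of 2.24 ± 0.35 on the log2 scale (adjusted p = 3.15e-07). Col1a2 read 5.39, 5.39 and 5.36 against 9.14, 11.6 and 9.55 CPM, a fall of 0.92 ± 0.14 (adjusted p = 4.53e-07), and Col1a1 4.97, 4.08 and 3.24 against 5.29, 4.19 and 6.61, overlapping (-0.33 ± 0.17, adjusted p = 0.101). Against this, Col11a2, a chain of the type XI collagen of cartilage and inner ear, read 13.2, 12.4 and 12.1 CPM with BPK25 and 1.73, 1.43 and 2.50 with DMSO, a rise of 2.79 ± 0.19 (adjusted p = 1.6e-17). Its BPK25 day 4 libraries were higher than those of any other group. Col5a2, the tail-to-tail neighbour of Col3a1 (0.94 ± 0.14), Col5a3 (1.25 ± 0.28), Col24a1 (0.99 ± 0.19) and Col11a1 (0.50 ± 0.11) were also higher. Beside these values, 2 of 10 tested fibroblast markers were higher and 4 lower, and 1 of 5 tested chondrocyte markers was higher and 1 lower.

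A few of the other collagens were much higher at day 4 with BPK25. The FACIT gene Col20a1 read 20.1, 16.8 and 21.9 CPM against 2.69, 2.57 and 2.35 in DMSO (2.95 ± 0.14, adjusted p = 1.87e-23). The transmembrane Col25a1, first known from amyloid plaques, read 6.30, 6.18 and 6.38 against 1.35, 1.53 and 1.47 CPM (2.11 ± 0.24, adjusted p = 2.32e-10), and the anchoring fibril gene Col7a1 19.2, 16.05 and 19.6 against 9.14, 7.72 and 7.34 (1.18 ± 0.11, adjusted p = 8.8e-13). For these 3 genes no other group reached the level of BPK25 day 4. Col20a1 shares 79 exonic bases on the same strand with BX649560.1, which had 1246 counts against 1524 for Col20a1, so its level is uncertain where reads could be given to either. Col18a1 read 241, 245 and 248 against 177, 176 and 182 CPM (0.45 ± 0.04, adjusted p = 5.32e-14) and Col12a1 6.38, 8.29 and 8.42 against 3.46, 3.62 and 1.91 (1.27 ± 0.19). Col6a1 and Col6a2 rose by 0.74 ± 0.16 and 0.73 ± 0.10, whereas Col6a3, the third chain of the common type VI filament, fell by 1.30 ± 0.36. Col13a1 fell by 0.29 ± 0.08, and Col9a2 (-0.00 ± 0.10) and Col22a1 (-0.01 ± 0.10) were not called.

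**Figure D3:**
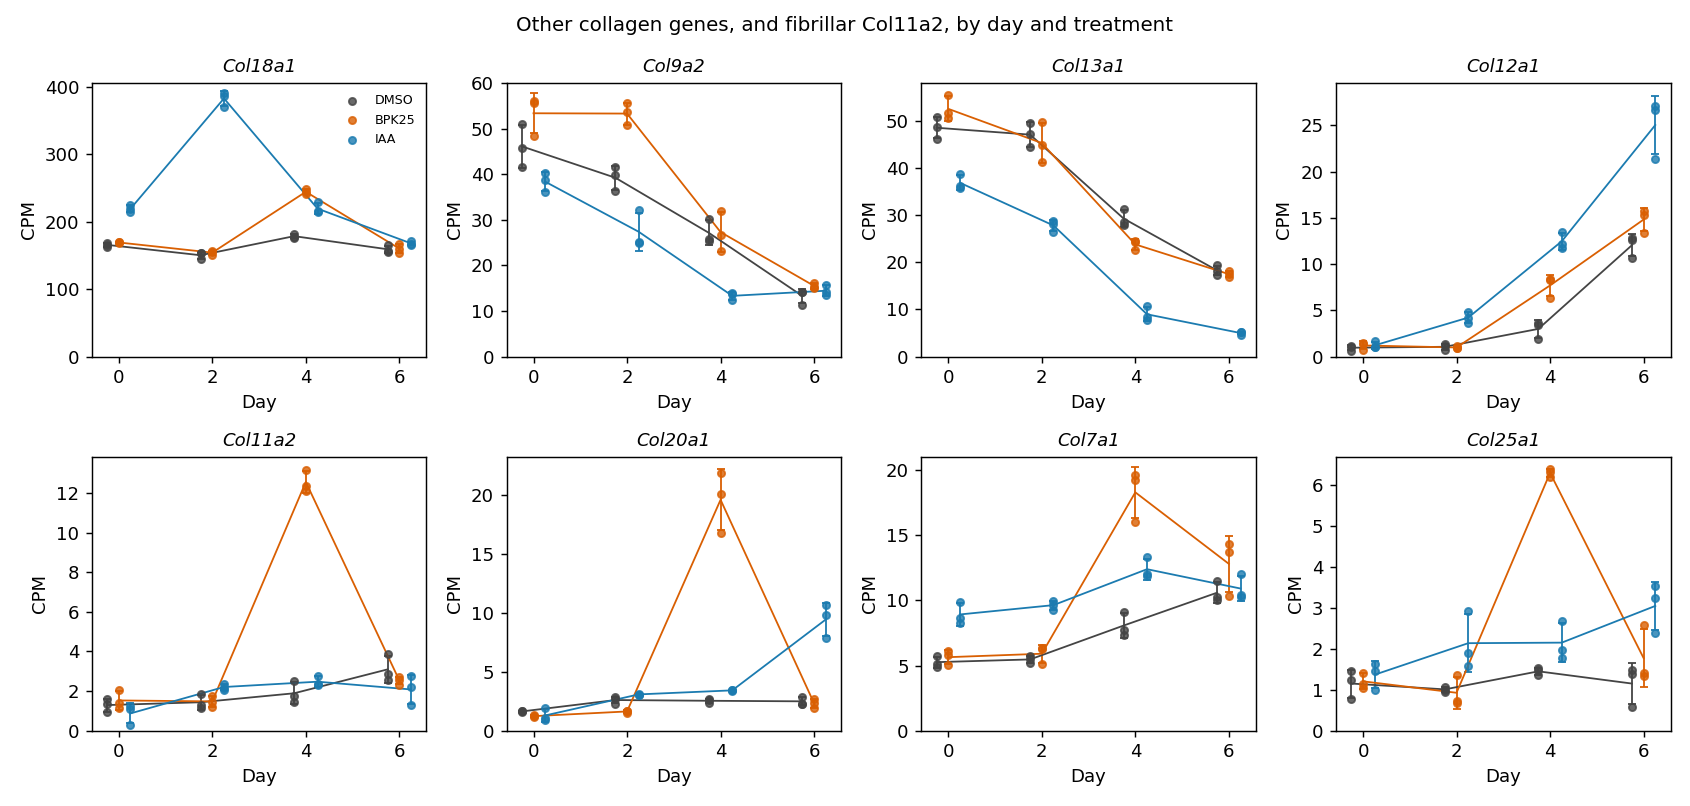
CPM (linear axis from 0) of Col18a1, Col9a2, Col13a1, Col12a1, Col20a1, Col7a1 and Col25a1 and of the fibrillar Col11a2 against day in DMSO (grey), BPK25 (orange) and IAA (blue), with 1 point per library, lines through the means of 3 libraries and bars of 1 SD. Col11a2, Col20a1, Col7a1 and Col25a1 peak in BPK25 day 4, at 12.6, 19.6, 18.3 and 6.29 CPM, and Col18a1 peaks in IAA day 2, at 383 CPM.

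Whether the BPK25 effect differed between days was tested jointly over the 4 days. The test called 18 of 39 collagens, 5 fibrillar, 2 type IV and 11 other genes, against 47.1% of all genes. The effect on Col3a1 was -2.24 at day 4 and 0.62 to 0.95 on the other days (adjusted p = 2.32e-08 for the difference), and that on Col20a1 was 2.95 at day 4 and -0.69 to -0.15 on the others (adjusted p = 1.66e-17). With days 0, 2 and 6 alone, 2 of 39 remained called, Col1a1 (adjusted p = 0.00905) and Col4a2 (adjusted p = 0.00271), against 8.05% of all genes.

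With IAA, collagen changes were present from day 0 on. At day 0, 9 of 39 were called higher than in DMSO and 6 lower, and 44.5% of all genes tested were called, 21.3% higher and 23.2% lower. Both chains of the abundant type IV pair were lower. Col4a1 read 1188, 1139 and 1163 CPM with IAA and 1584, 1523 and 1558 with DMSO (-0.42 ± 0.04, adjusted p = 7.13e-12), and Col4a2 read 688, 668 and 693 against 977, 985 and 989 (-0.53 ± 0.04, adjusted p = 1.39e-16). The pair did not overlap between groups, and 9 of 11 extra-embryonic endoderm markers were lower at the same time, with none higher. Col3a1 fell by 1.37 ± 0.43, to 0.982, 0.668 and 0.291 CPM, while Col11a1, the partner of Col11a2 in type XI fibrils, rose from 3.68, 3.54 and 5.12 to 12.01, 10.6 and 12.7 (1.52 ± 0.17). Of type VI, Col6a1 rose by 1.88 ± 0.18 and Col6a2 by 1.00 ± 0.15. Col18a1 rose by 0.40 ± 0.04.

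At IAA day 2, 15 collagens were higher and 11 lower, and 55.4% of all genes tested were called, 27.5% higher and 27.9% lower. All 4 tested type IV genes were higher, Col4a5 by 1.00 ± 0.17, Col4a6 by 1.35 ± 0.39, Col4a1 by 0.28 ± 0.04 and Col4a2 by 0.27 ± 0.04. Beside this, 7 of 11 extra-embryonic endoderm markers were higher and 4 lower, with a sum of 2337 to 2387 CPM against 2010.1 to 2032 in DMSO. Lamb1 stood at 1154 CPM against 670 and Dab2 at 434 against 296. Lama1, in contrast, stood at 619 CPM against 905 and Gata4 at 15.4 against 32.2. The type I chains moved apart. Col1a2 read 15.4, 14.1 and 14.7 CPM with IAA and 2.01, 3.35 and 2.74 with DMSO (2.43 ± 0.16, adjusted p = 5.88e-18), whereas Col1a1 read 3.43, 3.36 and 2.66 against 4.16, 4.28 and 4.35 (-0.45 ± 0.20, adjusted p = 0.0496). Neither chain's groups overlapped, but for Col1a1 the call was lost without replicate 1, 2 or 3 of DMSO day 2 or replicate 2 or 3 of IAA day 2 (edgeR adjusted p 0.0562 to 0.18), as it was with the replicate number as a block (-0.45, edgeR adjusted p = 0.0553). Col5a2, whose chains pair with those of Col5a1, read 10.2, 10.3 and 10.4 CPM with IAA and 2.15, 2.95 and 1.89 with DMSO (2.17 ± 0.18), while Col5a3 fell by 1.58 ± 0.29 and Col3a1 by 1.52 ± 0.40. Col18a1 reached its highest level of the 12 groups, 387, 391 and 371 CPM against 144, 154 and 153 (1.35 ± 0.04, adjusted p = 5.01e-32). Col6a4 was at the other end of the list, with a fall of 2.23 ± 0.31, and Col13a1 read 28.7, 26.4 and 28.2 against 49.6, 44.4 and 47.1 CPM (-0.76 ± 0.07). Of the fibroblast markers, 2 of 10 were higher and 5 lower, and of the endothelial and smooth muscle markers 4 of 8 were higher and 3 lower.

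By IAA day 4, 18 collagens were higher than in DMSO and 7 lower, with 8 of 11 fibrillar and 3 of 4 type IV genes higher and none of either class lower, and 51.9% of all genes tested were called, 25.9% higher and 25.9% lower. Col4a1 read 4909, 5124 and 4716 CPM against 2094, 2104 and 2114 (1.22 ± 0.04, adjusted p = 1.7e-29) and Col4a2 3092, 3104 and 3072 against 1394, 1367 and 1408 (1.15 ± 0.04, adjusted p = 1.46e-30), far outside the spread of the libraries. Col4a5 rose by 0.59 ± 0.12, and Col4a6 was not called (-0.30 ± 0.25). Beside this, 7 of 11 extra-embryonic endoderm markers were higher and 2 lower. Col3a1, below DMSO on days 0 and 2, was now above it, at 12.9, 10.1 and 13.5 against 2.69, 3.05 and 3.38 CPM (2.02 ± 0.17, adjusted p = 2.91e-14). Col2a1 rose by 1.67 ± 0.11, Col27a1 by 1.36 ± 0.10 and Col1a1 by 0.76 ± 0.14. Beside these, 5 of 10 tested fibroblast markers were higher and 2 lower, and 5 of 8 endothelial and smooth muscle markers were higher and none lower. All 5 tested chondrocyte markers were called, 2 higher and 3 lower. Sox9 stood at 18.9 CPM against 6.22 and the cartilage link protein Hapln1 at 3.004 against 0.194, whereas the cartilage proteoglycan Acan stood at 2.78 against 7.28. Among the others, Col14a1, a FACIT gene of tendon and skin, rose by 2.46 ± 0.28, Col26a1 by 2.44 ± 0.25 and Col12a1 by 1.98 ± 0.16, while Col13a1 fell by 1.70 ± 0.09, Col9a2 by 1.01 ± 0.11 and Col6a1 by 0.98 ± 0.20.

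At IAA day 6, 19 collagens were higher and 6 lower, and 60.6% of all genes tested were called, 30.6% higher and 30.0% lower. A change of at least 2-fold was called in 16 of 39, against 15.6% of all genes. The type I and III chains had their highest levels of the 12 groups. Col3a1 read 97.4, 111 and 101 CPM against 19.4, 22.98 and 16.7 in DMSO (2.39 ± 0.08, adjusted p = 1.01e-29), Col1a2 54.5, 53.1 and 57.9 against 21.2, 19.7 and 19.6 (1.44 ± 0.08, adjusted p = 2.2e-21) and Col1a1 47.4, 41.3 and 50.6 against 20.6, 20.7 and 21.5 (1.15 ± 0.08, adjusted p = 5.9e-18). None of the 3 overlapped DMSO, and 5 of 10 fibroblast markers were higher and 3 lower at the same time. Of the endothelial and smooth muscle markers, 6 of 8 were higher and 2 lower. Col27a1 rose by 1.31 ± 0.08 and Col2a1 by 1.46 ± 0.10, beside 2 of 5 tested chondrocyte markers higher and 2 lower. The type IV pair was still higher, Col4a1 at 6543, 6132 and 6431 against 4142, 4691 and 4321 CPM (0.54 ± 0.04, adjusted p = 3.45e-16) and Col4a2 at 4145, 4090.1 and 4082 against 2901, 3115 and 2873 (0.47 ± 0.04, adjusted p = 5.59e-16), while 6 of 11 extra-embryonic endoderm markers were now lower and 2 higher. Col4a5 (0.00 ± 0.11) and Col4a6 (-0.54 ± 0.27) were not called.

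The other collagens moved both ways at IAA day 6, with 10 of 24 higher and 5 lower. Col14a1 read 11.2, 10.9 and 14.6 CPM against 2.09, 1.78 and 1.01 (2.84 ± 0.18, adjusted p = 1.54e-18) and Col26a1 12.6, 10.2 and 15.4 against 1.91, 1.88 and 2.30 (2.66 ± 0.18, adjusted p = 1.71e-17). Col6a5 rose by 2.103 ± 0.18, Col20a1 by 1.89 ± 0.15, Col17a1 by 1.64 ± 0.24 and Col12a1 by 1.05 ± 0.11. Col13a1 reached its lowest level of the 12 groups, 5.14, 4.65 and 5.22 CPM against 17.3, 19.3 and 18.1 (-1.85 ± 0.12, adjusted p = 8.4e-19). Col9a2 (0.16 ± 0.12) and Col18a1 (0.08 ± 0.04) were not called. Of the type VI chains, Col6a3 was lower by 2.31 ± 0.32, at a mean of 0.832 CPM against 4.23, unlike Col6a5. The log2 effects on Col6a1 and Col6a2 were -0.31 and -0.40, whereas both chains rose with BPK25 at day 4. Over the 4 days jointly, the IAA effect differed in 34 of 39 members, 10 fibrillar, 4 type IV and 20 other genes, against 70.1% of all genes.

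**Figure D4:**
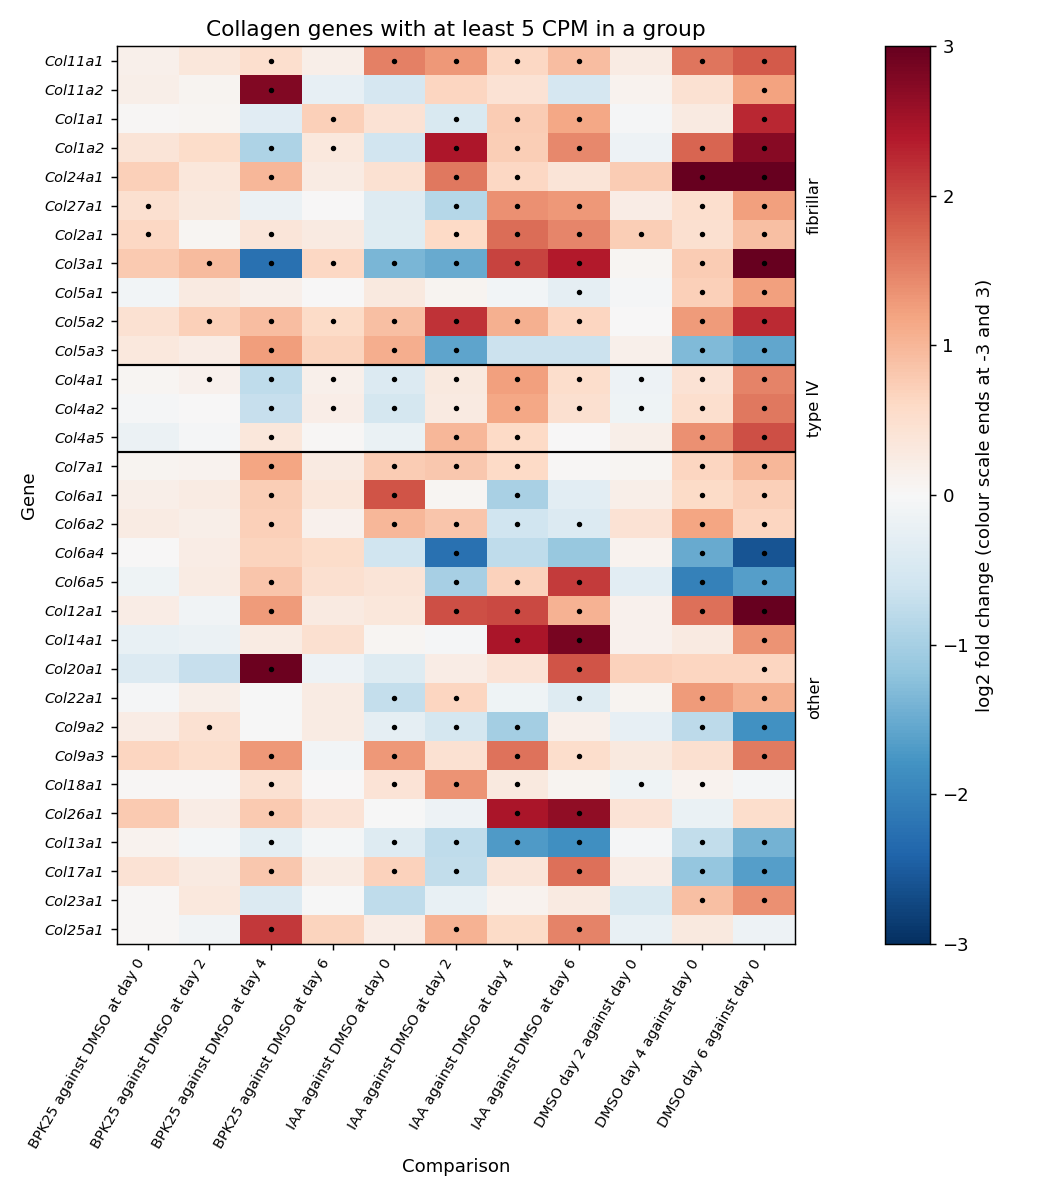
Fitted log2 fold changes (colour, with the scale ending at -3 and 3) of the 31 collagen genes with at least 5 CPM in a group, by comparison (columns), grouped by class (rows); a dot marks an adjusted p under 0.05 by edgeR's quasi-likelihood test. BPK25 has 2, 4 and 7 called members of 39 at days 0, 2 and 6 and 26 at day 4, and IAA has 15, 26, 25 and 25 at days 0, 2, 4 and 6.

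BPK25 and IAA were also compared directly. At day 4, 15 of 39 collagens were higher with BPK25 than with IAA and 11 lower, and 54.3% of all genes tested were called, 27.2% higher and 27.1% lower. Col3a1 differed most, at 0.829, 0.395 and 0.555 CPM with BPK25 and 12.9, 10.1 and 13.5 with IAA (-4.27 ± 0.24, adjusted p = 8.59e-21), and Col4a1 (-1.98 ± 0.04) and Col4a2 (-1.84 ± 0.04) were lower with BPK25 too. Col20a1 (2.53 ± 0.12) and Col11a2 (2.35 ± 0.17) were higher with BPK25. At day 2, where the BPK25 libraries were near DMSO, 12 were higher and 15 lower, and 57.5% of all genes tested were called, 29.2% higher and 28.4% lower, with Col3a1 higher by 2.47 ± 0.33 and Col12a1 and Col1a2 lower by 2.05 ± 0.27 and 1.87 ± 0.14. At day 0, 15 were higher and 10 lower, and 47.9% of all genes tested were called, 24.8% higher and 23.1% lower. At day 6, 10 were higher and 18 lower, and 56.6% of all genes tested were called, 27.7% higher and 28.8% lower, with Col14a1 (-2.35 ± 0.18), Col26a1 (-2.24 ± 0.19) and Col3a1 (-1.76 ± 0.08) among the lower.

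Over the 12 groups, 15 of the 39 tested members had their highest mean in IAA day 6, 7 in BPK25 day 4 and 5 in BPK25 day 6, which is 38.5%, 17.9% and 12.8% of them against 20.4%, 11.7% and 4.80% of all genes tested. None had it in a DMSO group, against 25.5% of all genes tested. In 13 of the 39, however, the libraries of the highest group overlapped those of the highest DMSO group, among them Col5a1, Col4a5 and Col13a1. The share of all genes with such an overlap was not computed, so the count is not a result about collagens. Of members not described so far, the FACIT gene Col22a1, known from tissue junctions, was highest in BPK25 day 6, at 18.4 ± 0.827 CPM, and lowest in IAA day 0, at 4.54 ± 0.231 CPM. The transmembrane Col23a1 ran from 1.22 ± 0.362 CPM in IAA day 0 to 6.46 ± 1.75 CPM in IAA day 6 and rose by 1.36 ± 0.22 in DMSO by day 6. The collagen IX chain Col9a3 was highest in IAA day 4, at 7.04 ± 0.905 CPM, but it shares 234 exonic bases with the antisense gene Tcfl5, which had 26860 counts in all libraries against 1413 for Col9a3, and whether counting used the strand is not given in the sources used. The 13 members under 5 CPM in all groups included Col6a3, which peaked at 4.44 ± 0.547 CPM in BPK25 day 0, and the FACIT gene Col16a1, at 4.93 ± 0.743 CPM in BPK25 day 6. Of the 5 untested members the highest group means were 0.973 CPM for Col4a4, 0.662 for Col28a1, 0.437 for Col4a3 and 0.234 for Col19a1, all in BPK25 day 4, and 0.13 for Col10a1, a chain of growth plate cartilage, in BPK25 day 6. No call can be made at these counts.

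Genes that make or bind collagen, or act in its degradation, were read from 3 lists. Of 34 tested genes of collagen synthesis and cross-linking, 23 rose and 5 fell between DMSO day 0 and day 6, 6 were higher and 16 lower with BPK25 at day 4, and 11 were higher and 16 lower with IAA at day 6; the background shares are those given above for each comparison. Serpinh1, the collagen chaperone Hsp47, was at 419.7 CPM in DMSO day 0 and 958 in DMSO day 6 (1.19 ± 0.04), and changed by -0.34 ± 0.04 with BPK25 at day 4 and 0.49 ± 0.04 with IAA at day 6. Sparc, a collagen-binding matrix protein, rose by 1.30 ± 0.03 over the DMSO series and fell with BPK25 at day 4, from 1590.0 to 782 CPM (-1.02 ± 0.03). Among 8 tested collagen receptors, 5 rose and none fell in DMSO, 1 was higher and 1 lower with BPK25 at day 4, and 6 were higher and 1 lower with IAA at day 6. Itgb1, the beta chain shared by the collagen-binding integrins, rose by 0.72 ± 0.04 in DMSO and by 0.58 ± 0.03 with IAA at day 6, and Mrc2, an uptake receptor for collagen, rose by 1.34 ± 0.08 in DMSO. The list of collagen degradation joins proteases with the Timp inhibitors of matrix metalloproteinases, so its counts give no direction of degradation. Of its 7 tested genes, 3 rose and 2 fell in DMSO. With BPK25 at day 4, 2 were higher and 2 lower, and with IAA at day 6, 3 were higher and 3 lower. Timp2, an inhibitor of matrix metalloproteinases, was at 71.3 CPM in DMSO day 4 and 15.3 in BPK25 day 4 (-2.22 ± 0.09). In DMSO it rose from day 0 to day 6 by 1.73 ± 0.08. At day 6 it stood at 130.9 CPM in BPK25 and 114.9 in DMSO. Mmp2, a gelatinase that cleaves denatured and type IV collagen, stood at 18.9 CPM in DMSO day 6 and 55.2 in IAA day 6 (1.53 ± 0.08).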

How the data were processed

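PolyA RNA of mouse embryonic stem cells was sequenced from 36 libraries; the labels' protocols name a SMARTer kit. Per the file headers, the values the authors deposited are unnormalized counts of reads for each gene and library, in a single table. The submitters' processing notes list featureCounts 2.0.1, HISAT2 2.1.0, FastQC 0.11.7 and DESeq2 and the mm10 build; strand setting and annotation release were not given in the sources used.

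From these counts, edgeR's filterByExpr, at a minimum count of 10 and a minimum total of 15, left 17394 genes. All libraries entered 1 fit of 12 groups with TMM scaling and edgeR's quasi-likelihood test (edgeR 4.0.16, R 4.3.3), two-sided, with Benjamini-Hochberg adjustment over all genes tested and calls at an adjusted p under 0.05. The biological coefficient of variation was 3.86%. CPM used TMM-scaled totals. Standard errors were computed from the log2 fold change and its F value. Positions and exonic lengths came from GENCODE M21 (GRCm38). The code was tested on simulated counts.

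Collagens were named where a group's mean reached 5 CPM, with values per library for the 4 most abundant of each class, the type IV pairs, Col1a1, Col1a2 and Col3a1, and for the largest changes. Some members under 5 CPM and Col7a1 and Col25a1 were named after their values were seen. So were Mmp2, Sox9, Matn3, Hapln1, Acan, Pecam1, Tagln, Cdh5, Pdgfra, Pdgfrb, Fbn1, Pou5f1, Lama1, Lamb1, Dab2 and Gata4. The members, gene lists, tests and naming rule were chosen with earlier results of these data known, so no test was made over the members as a set. Alternatives were RLE scaling, a stricter filter and no filter, a fit of only the libraries compared, the replicate number as a block, DESeq2 1.42.0 and each library left out. Joint tests without day 4 were added after the data were seen.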

Additional observations from a re-analysis of the deposited data

Results flagged for a closer look

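For the 4 collagens of each class with the highest mean in any single group, the effect of a treatment was compared between the 4 days by a joint edgeR quasi-likelihood test, and those with an adjusted p under 0.05 are given with the gap between their highest and lowest daily effect on the log2 scale. With BPK25 the gap was 3.19 for Col3a1, 1.48 for Col1a2, 1.05 for Col1a1 and 0.67 for Col27a1 among the fibrillar genes. It was 0.914 for Col4a1 and 0.89 for Col4a2 of type IV, and 1.39 for Col12a1, 0.45 for Col9a2, 0.447 for Col18a1 and 0.407 for Col13a1 among the others. With days 0, 2 and 6 alone, the joint test kept a call for Col1a1 and Col4a2 of the 39 tested collagens, and Col9a2 also lost its call when any of 6 single libraries was left out.

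With IAA the gap was 3.91 for Col3a1, 3 for Col1a2, 1.61 for Col1a1 and 2.21 for Col27a1 among the fibrillar genes. It was 1.64 for Col4a1, 1.68 for Col4a2, 1.2 for Col4a5 and 1.89 for Col4a6 of type IV, and 1.65 for Col12a1, 1.17 for Col9a2, 1.27 for Col18a1 and 1.46 for Col13a1 among the others. The IAA effects on Col3a1 and on the Col4a1 and Col4a2 pair were called lower on some days and higher on others. By the mean over all 36 libraries, Col5a1 (18.4 CPM) and Col11a1 (12.6) would stand among the first 4 fibrillar genes in place of Col1a1 (12.2) and Col27a1 (10.8), and Col22a1 (12.3) among the first 4 others in place of Col12a1 (7.06). In the joint BPK25 test the edgeR adjusted p was 0.294 for Col5a1, 0.284 for Col11a1 and 0.306 for Col22a1, none of them called. Groups of 3 libraries are too small for a test of single outlying libraries.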

How the results depend on the processing

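No direction reversed under any alternative. With RLE size factors or the stricter filter, all 351 called values of members kept their call, and the replicate block lost 1 of 351 (Col1a1 with IAA at day 2, -0.45). Same-numbered libraries of different groups correlated between -0.0687 and 0.0604 in their deviations, against -0.0624 to 0.0865 for libraries of other numbers. No shared effect of the number was therefore seen. Whether same-numbered libraries shared a culture or preparation cannot be told from these correlations, and the labels do not say. DESeq2 lost 13 of 297, no filter 17 of 351, the fit of only the libraries compared 8 of 287, and single libraries left out 180 of 3042. In all, 53 of 299 called pairs of member and comparison lost the call somewhere. A member with no adjusted p in an alternative was left out there and not counted as lost, so these losses may be too low. For BPK25 at day 0 the count of called collagens was 2, against 0 with DESeq2, which gave 12 members an adjusted p there, and 0 to 2 with a library left out. Leaving out a library gave 2 to 4 at BPK25 day 2 and 4 to 7 at BPK25 day 6. For DMSO day 2 against day 0 the count of 4 became 2 with no filter, 1 with only the libraries compared and 1 to 2 with a library left out. The joint BPK25 test called 18, and 2 over days 0, 2 and 6. With unscaled totals the log2 change of class sums was 0.149 instead of 0.198 (other collagens, IAA day 6), 1.63 instead of 1.53 (type IV, DMSO day 6) and -0.0935 instead of -0.19 (others, DMSO day 6); beyond fewer libraries or genes in a fit, the causes were not tested. Low counts limit what can be called for the 13 members under 5 CPM.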
